A study of Drosophila melanogaster with 4 samples.

Results

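Levels of 9 genes of sugar digestion were followed in 4 libraries of RNA from whole female Drosophila melanogaster: tobi, the maltase genes Mal-A1, Mal-A2, Mal-A3, Mal-A4, Mal-A6, Mal-A7 and Mal-A8, and the amylase relative Amyrel. They were taken by FlyBase symbol, matched to the gene IDs of the deposited tables, and are 9 of 12073 genes with a row in any table. All 9 had a row in all 4 tables. They were chosen by name, with their RPKM values and differences in the same 4 libraries already known, so their values are a description and carry no test.

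The study crossed genotype with oxidative stress in adults 1 to 3 days old. Wild type flies were w1118. Mutant flies carried w1118 and kdm5K6801/10424, a pair of mutant alleles of kdm5, a histone lysine demethylase gene. The genotype as written does not say whether the rest of the genome matched that of the wild type flies. For 6 hours both genotypes were given either 5% sucrose alone, the control, or the same food containing paraquat at 20 mM, a herbicide that generates superoxide inside cells. Each group is 1 library of poly-A RNA, with flies extracted in groups of 5, so differences could not be checked against replicates and p-values are not given.

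Maltases are alpha-glucosidases that cut glucose units from the ends of short sugars. Sucrose, the food in all 4 groups, is among the substrates of this enzyme family, and in flies the digestive enzymes act mainly in the midgut. The gene tobi, target of brain insulin, encodes an enzyme related to alpha-glucosidases. Its transcript is known to depend on insulin-like peptides, on adipokinetic hormone and on diet. Transcripts of fly digestive carbohydrases are also known to fall on sugar-rich food, by way of the activin-type ligand Dawdle and the sugar sensor Mondo.

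Levels are given as RPKM, reads per kilobase of gene and per 1e6 reads of the library. A difference is that of log2(RPKM + 1), and the size rule calls a gene higher or lower where this is at least 1 either way and where 1 of the libraries compared, or more, had at least 1 RPKM. Folds are ratios of RPKM, followed by 95% counting intervals, which say nothing of variation between flies. The libraries held 27.9 M to 29.1 M uniquely mapped reads (M, 1e6). Kdm5 stood at 43.4 RPKM in wild type without and 22.5 with paraquat, and at 2.06 and 2.03 in mutant flies. Yolk protein genes Yp1, Yp2 and Yp3 ranged from 868 to 4296 RPKM, and 3 male-specific genes, of 5 listed, summed to at most 1.1 RPKM, the others having no row. The wild type control library stood apart: over 8611 genes its log2 differences from the other 3 had an SD of 0.723 to 0.752, against 0.279 to 0.590 among those 3.

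All 9 genes had their lowest RPKM in the wild type control and their second lowest in wild type with paraquat, so each was higher in both mutant libraries than in either wild type library. Together they took 0.0433% of reads in the wild type control, 0.153% in wild type with paraquat, 0.278% in the mutant control and 0.264% in the mutant with paraquat. In RNA of whole flies, a change in the number of cells of a type and a change in the RNA each cell makes cannot be told apart.

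**Figure D1:**
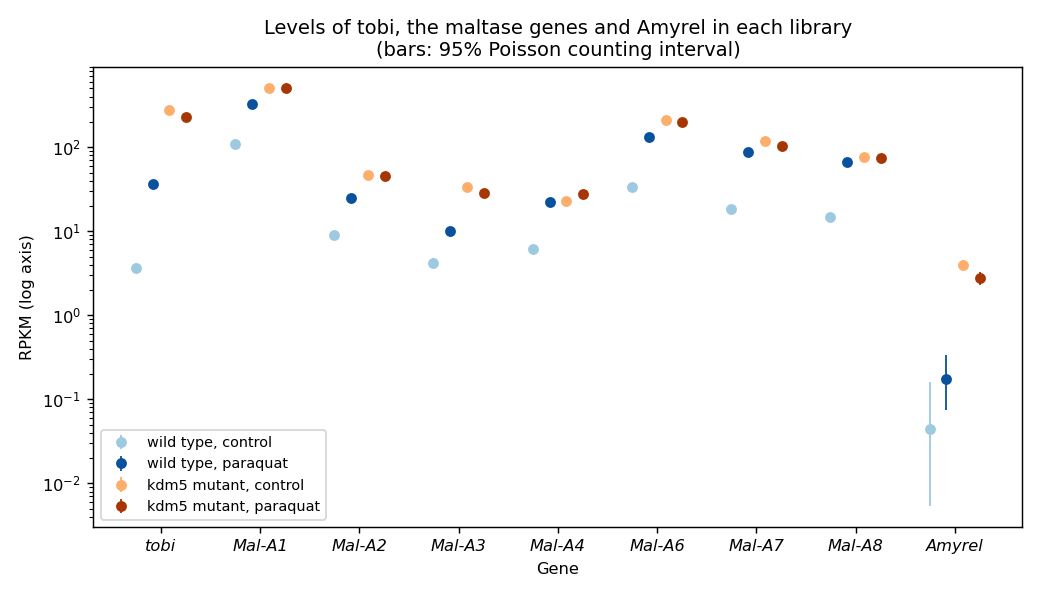
RPKM of the 9 genes (horizontal axis) on a log axis in the 4 libraries, with bars for the 95% Poisson counting interval. The wild type control is the lowest point for every gene, with tobi running from 3.69 RPKM there to 277 in the mutant control and Amyrel from 0.0446 to 3.94.

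The gene tobi (FBgn0261575; chromosome 3R, 25344761 to 25346921 in BDGP6, minus strand, 2 exons) had 3.69 RPKM in the wild type control, 36.6 in wild type with paraquat, 277 in the mutant control and 231 in the mutant with paraquat. These rest on 223, 2285, 16932 and 14510 reads. The wild type levels lay far below both mutant levels, and the 2 mutant levels lay near each other. In control flies the mutant level was 75.0-fold higher (65.7 to 85.9), the second largest difference of 8364 genes, at 5.89 on the log2 scale. Under paraquat the mutant level was 6.31-fold higher (6.04 to 6.60). Paraquat went with a 9.90-fold higher level (8.63 to 11.4) in wild type and a 1.20-fold lower one (1.17 to 1.23) in the mutant, the latter far inside the size rule.

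Reads of tobi covered 92.6% to 98.6% of its length in the 4 libraries. Its last 78 bases overlap rha, a gene on the opposite strand, which had 0.08 to 0.13 RPKM. Fur1, a furin-type protease gene beside tobi, had differences between −0.12 and 0.11 in the 4 comparisons. CG11902 and Vps33B, the other nearest genes with reads, had −0.75 and −0.15 between the genotypes in control flies.

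The rank of tobi among the 9 genes changed with the library. In the wild type control only Amyrel was below it, and its counting interval overlapped that of Mal-A3, the next above. In wild type with paraquat only 4 of the 9 were above it, and in both mutant libraries it was second only to Mal-A1. Its share of the reads of the 9 genes was 1.84% and 5.17% in wild type (control, paraquat) and 21.5% and 18.9% in the mutant. As a share of the RPKM of Mal-A1, tobi stood at 3.38% in the wild type control and 55.1% in the mutant control.

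**Figure D2:**
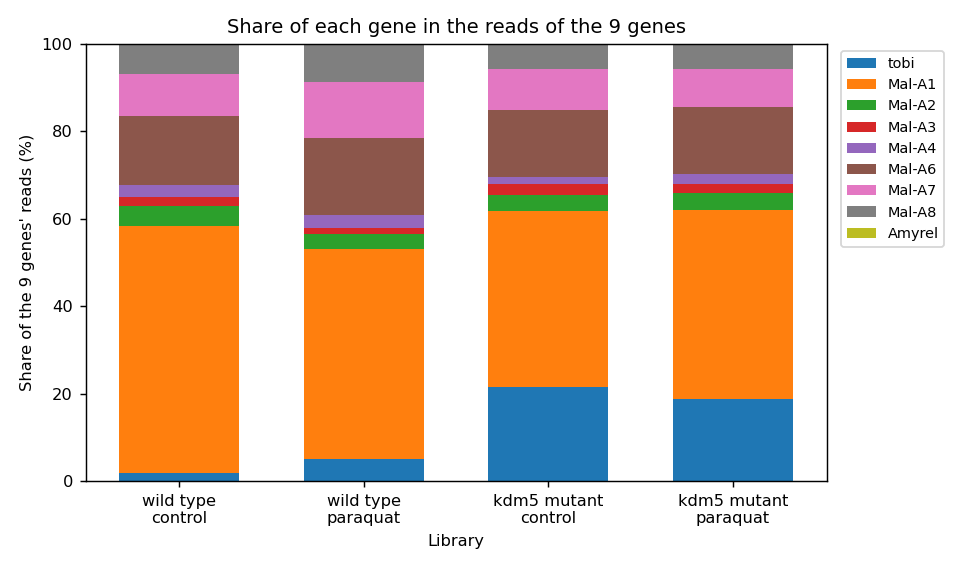
Share (%) of each gene in the reads of the 9 genes, one bar per library. The tobi segment grows from 1.84% in the wild type control to 21.5% in the mutant control, while Mal-A1 keeps the largest share in each library, 40.4% to 56.6%.

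The 7 maltase genes lie in one cluster on chromosome 2R, from 8449664 to 8473961 in BDGP6, a stretch of 24.3 kb that holds 8 maltase genes in all. The eighth is Mal-A5, between Mal-A4 and Mal-A6. Unlike tobi, the 7 kept nearly the same order of level in each library: Mal-A1 was highest, followed by Mal-A6, Mal-A7, Mal-A8 and Mal-A2, with Mal-A3 and Mal-A4 lowest. Mal-A3 and Mal-A4 changed places between libraries, and in the mutant with paraquat their counting intervals overlapped. The highest of the 7 exceeded the lowest 18.2-fold to 32.8-fold, depending on the library.

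Mal-A1 (FBgn0002570, 3 exons) had 109 and 327 RPKM in wild type without and with paraquat and 502 and 508 in the mutant; the 4 values of each gene below keep this order. The 2 mutant levels had overlapping counting intervals. Its mutant level was 4.59-fold higher (4.47 to 4.71) in control flies and 1.55-fold higher (1.53 to 1.58) under paraquat. Mal-A6 (FBgn0050360, 3 exons), the next most abundant, had 33.5, 131, 208 and 198 RPKM. The wild type control was again the low library for it, and its mutant level was 6.23-fold higher (5.94 to 6.54) in control flies.

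Mal-A7 (FBgn0033296, 3 exons) had 18.6, 88.2, 117 and 103 RPKM, and Mal-A8 (FBgn0033297, 4 exons) had 14.8, 66.1, 76.3 and 73.9. For this neighbouring pair the wild type level with paraquat came close to the mutant levels. Under paraquat the mutant exceeded wild type 1.17-fold (1.13 to 1.21) for Mal-A7 and 1.12-fold (1.07 to 1.17) for Mal-A8, both inside the size rule. Their differences with paraquat in wild type, 2.19 and 2.09, were the largest among the maltases.

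Mal-A2 (FBgn0002569, 3 exons) had 9.15, 25.1, 47.1 and 45.7 RPKM, with overlapping counting intervals for the mutant libraries. Mal-A4 (FBgn0033294, 5 exons) had 6.19, 22.3, 23.1 and 27.9. For Mal-A4 the wild type level with paraquat and the mutant control level had overlapping intervals, and its mutant level with paraquat was 1.20-fold above that of the mutant control (1.12 to 1.30). Mal-A3 (FBgn0002571, 4 exons) had 4.20, 9.97, 33.4 and 28.5 RPKM. It was the maltase furthest from wild type in both conditions, 7.95-fold higher in mutant control flies (6.93 to 9.15) and 2.86-fold higher under paraquat (2.60 to 3.15).

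Amyrel (FBgn0020506; chromosome 2R, 16651095 to 16652699, minus strand, 2 exons), a paralogue of the alpha-amylases, was the least abundant of the 9 in every library. It had 0.0446 RPKM in the wild type control, 0.172 in wild type with paraquat, 3.94 in the mutant control and 2.74 in the mutant with paraquat, from 2, 8, 179 and 128 reads. The wild type reads covered 6.11% and 16.6% of the gene, and the mutant reads 95.5% and 92.3%. The mutant level was 88.4-fold higher (24.1 to 735) in control flies and 15.9-fold higher (7.83 to 37.6) under paraquat. Between the wild type libraries its counting intervals overlapped, and the fold with paraquat, 3.87, had an interval of 0.771 to 37.4. Amyrel overlaps 31 bases of gprs, on the opposite strand, which had 0.72 to 1.53 RPKM, highest in wild type with paraquat.

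Between the genotypes in control flies, all 9 genes were past the size rule on the higher side, with a median difference of 2.29 and a range of 1.75 (Mal-A4) to 5.89 (tobi). Over all 8364 genes 6.55% were higher and 5.75% lower by the same rule, 12.3% in all, and the median gene differed by −0.19. The members were chosen with this comparison known, so their count is given for completeness and nothing is read from it. Since the wild type control stood apart, the mutant control was also set against wild type flies with paraquat, which crosses the treatment. Then 3 of the 9 stayed past the rule, tobi at 2.89, Amyrel at 2.08 and Mal-A3 at 1.65, and the other 6 lay between 0.05 and 0.88. Over 8500 genes 3.12% were higher and 3.22% lower there, 6.34% in all.

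Under paraquat, where the comparison of genotypes does not use the wild type control, tobi, Mal-A3 and Amyrel were past the size rule on the higher side, with differences of 2.63, 1.43 and 1.67. Over 8487 genes 2.30% were higher and 2.70% lower, 5.00% in all, with a median of 0.08. The other 6 genes were on the higher side too, between 0.16 (Mal-A8) and 0.84 (Mal-A2), and were not past the rule. The median of the 9 was 0.63.

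In wild type, 8 genes were past the rule on the higher side with paraquat, and Amyrel did not reach 1 RPKM in either library. Over 8429 genes 5.21% were higher and 10.4% lower, 15.6% in all, with a median of −0.29. The 7 maltases lay between 1.08 (Mal-A3) and 2.19 (Mal-A7), and tobi at 3.00. Among the maltases Mal-A3 had the largest difference between genotypes in control flies, 2.73, and the smallest with paraquat in wild type. This comparison and that of the genotypes in control flies share the wild type control library. With the mutant control as the baseline in its place, which crosses the genotype, wild type flies with paraquat had 0 members higher and 3 lower. This is the comparison of the mutant control with wild type paraquat flies given above, with its sign reversed.

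In the mutant, 0 of the 9 genes were past the rule with paraquat, with differences between −0.40 (Amyrel) and 0.26 (Mal-A4) and a median of −0.07. Over 8288 genes 0.712% were higher and 0.603% lower, 1.32% in all, with a median of −0.05. The difference of the responses, mutant minus wild type, was past the rule on the lower side for 8 genes and −0.57 for Amyrel. Over 8611 genes 6.18% were lower and 8.36% higher in it, 14.5% in all, a split that turned with the scaling: 720 were higher and 532 lower as given, against 415 and 713 with median-ratio and 296 and 861 with upper-quartile scaling. The value was −3.26 for tobi and between −2.37 (Mal-A7) and −1.30 (Mal-A3) for the maltases. It rests on the wild type control in the same way as the wild type response.

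**Figure D3:**
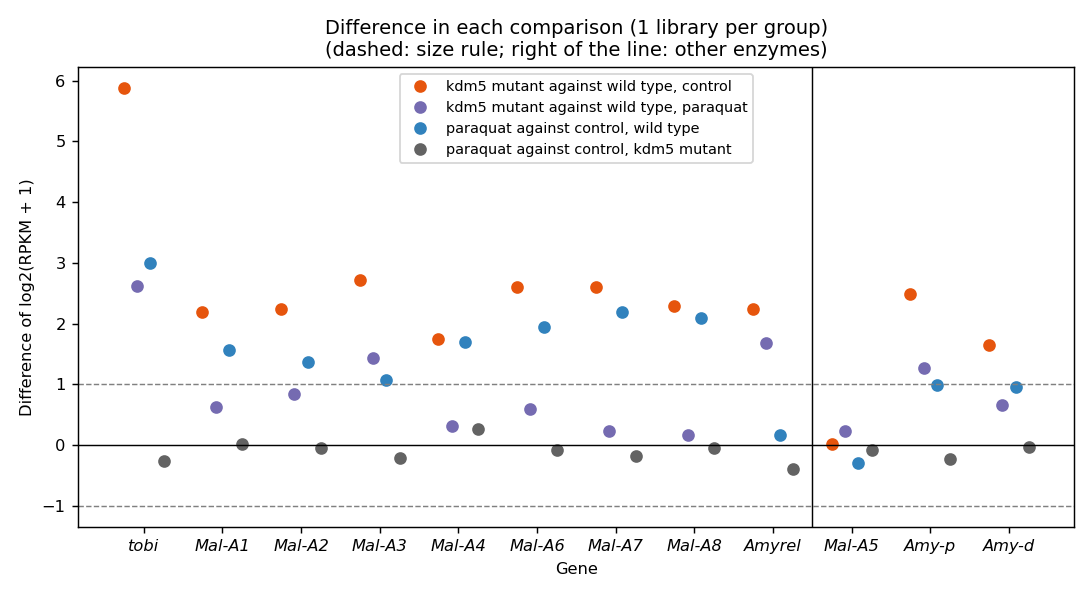
Difference of log2(RPKM + 1) for the 9 genes and 3 other enzymes (right of the vertical line) in the 4 comparisons, with dashed lines at the size rule of 1. Points for the genotypes in control flies lie at 1.75 or above for the 9 genes, and points for paraquat in the mutant lie between −0.40 and 0.26.

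Mal-A5 (FBgn0050359; chromosome 2R, 8462753 to 8465092, plus strand) did not follow its neighbours. It had 53.4, 43.5, 54.3 and 51.2 RPKM, a 1.25-fold span from lowest to highest. In the wild type control it was more abundant than every maltase of the cluster but Mal-A1, and in the mutant control it lay below Mal-A1, Mal-A6, Mal-A7 and Mal-A8. The fold between genotypes in control flies was 1.02 (0.971 to 1.07), and with paraquat the wild type level was 1.23-fold lower (1.17 to 1.29). The list of 9 genes, made with results known, leaves Mal-A5 out, so its contrast with them is partly set by that choice. Mal-A1 overlaps 82 bases of Cyp4e1, a cytochrome P450 gene on the opposite strand, which had 2.37, 4.08, 5.37 and 5.33 RPKM, and Mal-A8 overlaps 6 bases of mtt, which had 0.07 to 0.14. Cyp4e2, the next gene beyond Cyp4e1, had differences of 0.05 to 0.41 in the 4 comparisons.

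**Figure D4:**
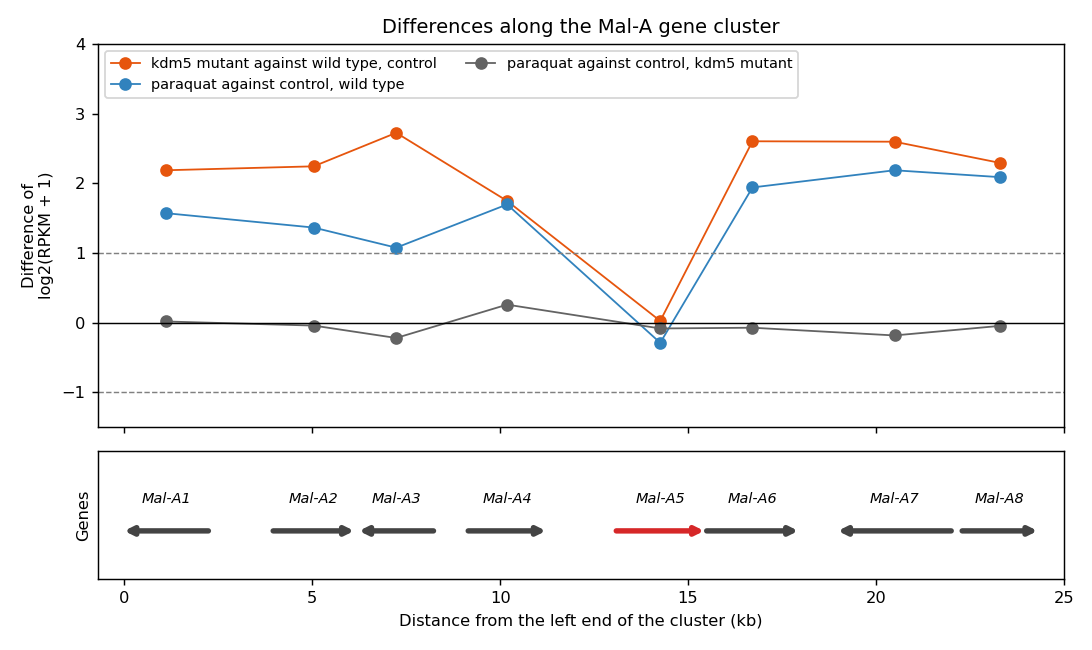
Difference of log2(RPKM + 1) for the 8 genes of the Mal-A cluster (upper panel) at their distance in kb from the cluster's left end, with arrows for gene direction (lower panel, Mal-A5 in red). Mal-A5 lies at 0.02 for the genotypes in control flies and −0.29 for paraquat in wild type, between neighbours that lie above 1.

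Profiles over the 4 libraries were compared by the root mean square distance of log2(RPKM + 1) after centring each gene on its own mean. The 7 maltases lay 0.0997 (Mal-A1 and Mal-A2) to 0.593 (Mal-A3 and Mal-A4) from each other. The distance from tobi to the other members was 1.28 to 1.69. Of 6795 genes with at least 5 RPKM in a library, the 5 nearest to tobi were CG32444, the metallothionein gene MtnE, CG3699, CG31862 and CG33346, at 0.717 to 0.814. CG32444 had 8.82, 27.1, 158 and 170.3 RPKM and MtnE had 3.70, 31.0, 71.8 and 151. All 5 were lowest in the wild type control. Among the 6795 genes the 7 maltases ranked from 26 (Mal-A3) to 118 (Mal-A4) in nearness to tobi. The distance is not scaled for the size of a gene's differences.

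The maltases and Amyrel were left out when genes nearest to their own median profile were ranked. Nearest among the rest were the cuticle protein gene Cpr76Bd, FBgn0030737, CG4363, CG9331 and the larval serum protein gene Lsp1gamma, at 0.145 to 0.177. The 7 maltases themselves lay 0.0507 (Mal-A1) to 0.373 (Mal-A3) from that profile. Cpr76Bd had 4.57, 17.5, 28.0 and 21.0 RPKM and Lsp1gamma had 3.99, 15.7, 27.2 and 18.5. A likeness over 4 libraries is a description, and the low wild type control weighs heavily in each of these profiles.

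**Figure D5:**
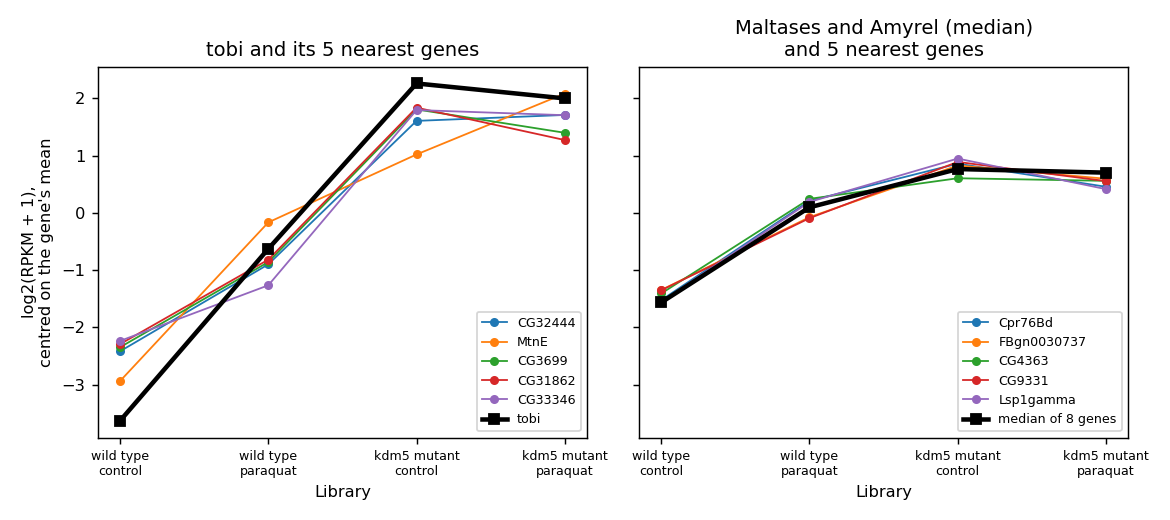
log2(RPKM + 1), centred on each gene's mean, over the 4 libraries for tobi and its 5 nearest genes (left) and for the median of the other 8 genes and its 5 nearest genes (right). The nearest genes lie within 0.814 of tobi and within 0.177 of the median profile, as root mean square distance. Genes that make up the median were left out of its ranking.

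Of 15 other enzymes that act on sugar chains, 12 had a row and 11 reached 1 RPKM between the genotypes in control flies. Of these, 6 were higher in the mutant, 0 lower and 5 neither, with a median of 1.04. Over all genes 6.55% were higher and 5.75% lower in this comparison, with a median of −0.19. The alpha-amylase genes Amy-p and Amy-d had 54.4, 109, 310.0 and 266 RPKM and 36.4, 72.0, 117 and 114 RPKM. They are near-identical copies, and unique reads covered only 43.6% to 48.5% and 46.6% to 51.2% of their lengths, so how reads divide between them is uncertain. Amy-p was also past the rule between genotypes under paraquat (1.28), the only one of the 11, where 2.30% of all genes were higher and 2.70% lower. Gal, a beta-galactosidase gene, and LManVI, an alpha-mannosidase gene, were 1.75 and 1.26 higher in mutant control flies, and 0.06 and −0.08 apart under paraquat. With paraquat 4 of the 11 were higher in wild type (median 0.96) and 0 in the mutant (median −0.08). The all-gene shares were 5.21% higher and 10.4% lower in wild type, and 0.712% and 0.603% in the mutant. Trehalase, Treh, which splits the blood sugar trehalose, had 12.6, 14.4, 19.2 and 18.1 RPKM. Mal-B1 and Mal-B2 had no row and were not analysed here.

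Genes listed as acting upstream were mostly inside the size rule where they could be measured, as were most genes. Over all genes 12.3% were past it between genotypes in control flies and 5.00% under paraquat. With paraquat the share was 15.6% in wild type and 1.32% in the mutant. Nothing is therefore read from a low count in so short a list. Of 12 sugar sensing and carbohydrate repression genes 10 had a row, Med and cbt having none, and 8 reached 1 RPKM. Of these, 0 were past the rule in any of the 4 comparisons, with medians of −0.10 to 0.03. The transcription factor gene sug (sugarbabe), a target of Mondo, had 4.45, 3.94, 1.99 and 2.62 RPKM, the ligand gene daw (Dawdle) 2.14, 2.35, 1.74 and 1.71, and Mondo 7.08, 5.92, 7.81 and 7.77. Between genotypes in control flies sug had −0.86, the receptor subunit gene put −0.65 and the partner gene bigmax 0.18. At levels as low as those of sug, adding 1 to the RPKM shrinks such a difference.

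In the list of insulin and adipokinetic hormone signalling, 9 of 14 genes had a row. The all-gene shares past the rule between genotypes in control flies were 6.55% higher and 5.75% lower. Between the genotypes in control flies Pepck1, a gluconeogenic enzyme gene, was higher (86.9 and 356 RPKM), Thor, a translation inhibitor that foxo controls, was lower (201 and 98.5), and 7 were neither, with a median of −0.23. Under paraquat the genotypes differed by 0.50 for Pepck1 and −0.12 for Thor, inside the rule. With paraquat Pepck1 was higher in wild type (1.99) and Thor in the mutant (1.59). The hormone gene Akh had 7.35, 10.3, 6.14 and 7.34 RPKM in the 4 libraries, and foxo had 4.56, 5.06, 4.18 and 4.71. Rows for the insulin-like peptide genes Ilp2, Ilp3, Ilp5 and Ilp6 and for the receptor InR were not found under the reference's gene IDs, so they were not analysed here.

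Downstream of digestion, 13 of 18 genes of sugar uptake and use had a row. Between the genotypes in control flies 4 of 11 at the minimum were higher, 0 lower and 7 neither (median 0.57): Galk, galactokinase (13.7 and 43.6 RPKM), UGP, which makes UDP-glucose (15.1 and 45.8), Tps1, which makes trehalose (48.1 and 117), and Glyp, glycogen phosphorylase (122 and 255). Galk and UGP were past the rule under paraquat as well (1.36 and 1.08), the only 2 of 12. The all-gene shares were 6.55% higher and 5.75% lower between genotypes in control flies, and 2.30% and 2.70% under paraquat. With paraquat 0 genes of the list were past the rule in either genotype, where 15.6% of all genes were past it in wild type and 1.32% in the mutant.

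Other gut genes gave the following values beside these. Among 24 gut serine proteases at the minimum, 5 were higher and 3 lower in mutant control flies (median 0.24), and 3 were higher and 5 lower under paraquat (median −0.38). Over all genes 12.3% were past the rule between genotypes in control flies and 5.00% under paraquat. The 3 lower in control flies were Jon66Ci (−1.51), Jon99Fii (−1.24) and Jon65Aii (−1.08). Jon99Ci had 17.4, 43.3, 135 and 87.7 RPKM and Jon25Bi 30.7, 137, 151 and 72.8. Of gut lipases 4 of 12 had a row, of which 3 reached 1 RPKM between genotypes in control flies, 2 higher and 1 lower. CG8093 had 16.8, 30.0, 85.3 and 71.1 RPKM, and CG2772, named after its values were seen, had 2.85, 3.34, 0.177 and 0.0862 RPKM and was the lower one. Midgut markers had a median difference of 0.02 in control flies, with 1 of 13 past the rule, PGRP-SC2, a secreted amidase gene (46.9 and 132 RPKM). Between genotypes under paraquat, 0 of 14 midgut markers were higher and 2 lower in the mutant (median −0.47). With paraquat in wild type 2 of 14 were higher and 0 lower (median 0.45). The all-gene shares there were 5.21% higher and 10.4% lower, with a median of −0.29. Myo31DF, a myosin gene of enterocytes, had 7.96, 7.30, 5.96 and 7.05 RPKM. The markers Npc2d and Vha100-4 had differences of 0.48 and −0.13 between genotypes in control flies.

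Summed levels of tissue markers are set beside those of the 9 genes, in the same order of libraries. Summed RPKM of the 9 genes was 199.5, 707, 1289 and 1219. That of 17 midgut markers was 96.7, 120.1, 185 and 154, or 49.8, 70.2, 53.5 and 55.4 without PGRP-SC2, and that of 25 gut serine proteases 4308, 5932, 4878 and 4009. For 12 fat body markers it was 381, 462, 742 and 564, of which Lsd-2 alone gave 249.5, 180.5, 149 and 163. Between genotypes in control flies 7 of the 12 were higher in the mutant and 0 lower (median 2.02), with Fbp1 at 1.93 and 48.3 RPKM. Under paraquat 1 was higher and 0 lower in the mutant (median −0.06). With paraquat in wild type 7 were higher and 0 lower. For 11 muscle markers it was 2859, 8883, 6577 and 5997, with 5 higher and 0 lower in mutant control flies. Under paraquat 0 of them were higher and 1 lower in the mutant. With paraquat in wild type 9 were higher and 0 lower. For 10 ovary markers it was 5989, 1396, 2378 and 1481. In mutant control flies 6 were lower and 0 higher, among them Cp18 at 1049 and 179 RPKM. Under paraquat 2 were higher and 0 lower in the mutant, and with paraquat in wild type 8 were lower and 0 higher. Over all genes 6.55% were higher and 5.75% lower between genotypes in control flies, and 2.30% and 2.70% under paraquat. With paraquat in wild type 5.21% were higher and 10.4% lower. The first and last of these comparisons share the wild type control. For 10 Malpighian tubule markers it was 76.8, 112, 114 and 77.8. Rows for esg (midgut), FASN1 (fat body), wupA, TpnC4 and Mlp84B (muscle) and Cp36, Cp38, Vm32E and vas (ovary) were not found under the reference's gene IDs. The part of tissue makeup in the values of the 9 genes was not tested.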

How the data were processed

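Poly-A RNA of whole flies was sequenced, 1 library in each of 4 groups. The deposited tables hold, per the file headers, for each gene ID the count of uniquely mapped reads, the gene length, the percent of that length with coverage and the RPKM value. Cufflinks and the build dm3 are listed in the submitters' processing notes. No aligner, annotation release or strand setting was stated there. The deposited counts sum to the library totals in the headers, and RPKM equals reads per kilobase of the deposited length and 1e6 reads to within a relative gap of 5.13e-07. That length equals the gene span, introns included, in BDGP6 for 7 of the 9 members, and is shorter for Mal-A6 and Mal-A7. Positions are from the Ensembl 115 annotation of BDGP6, a later build than dm3. Genes without a row in 1 table were taken as 0 reads there. A list gene without a row in any table was left out, since its ID may have changed.

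Differences were taken of log2(RPKM + 1), with no test, since 1 library per group leaves no spread to estimate. Fold intervals come from the exact Clopper-Pearson method, applied to how a gene's reads divided between the libraries compared, and intervals of levels are exact Poisson intervals, both at 95% and for counting error only. The members, gene lists and rules were chosen with earlier results of these data known. Named are the 9 members, Kdm5, up to 4 genes of a list by the size of the genotype difference in control flies with at least 5 RPKM, the 5 nearest profiles and the nearest genes on the chromosome. Mal-A5, Treh, CG2772, Lsd-2, Jon66Ci, Jon99Fii, Jon65Aii, sug, daw, Akh, foxo and genes named for having no row were added after their values were seen. The calculation was tested on simulated data that held counting error only, so variation between flies or libraries was not covered. Python 3.11.15, NumPy 2.4.6, pandas 2.3.3, SciPy 1.17.1 and Matplotlib 3.10.9 were used.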

Additional observations from a re-analysis of the deposited data

Results flagged for a closer look

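For 6 of the 9 genes the paraquat difference was positive in wild type and negative in the mutant, and the difference of the responses, mutant minus wild type, was past the size rule: −3.26 for tobi, −1.41 for Mal-A2, −1.30 for Mal-A3, −2.01 for Mal-A6, −2.37 for Mal-A7 and −2.13 for Mal-A8. The mutant values of these genes lay between −0.26 (tobi) and −0.04 (Mal-A2), inside the size rule, so the opposite sign is small on the mutant side. For Mal-A2 and Mal-A8 the counting intervals of the mutant libraries overlapped, so the sign of their mutant value is not settled. The share of all genes meeting the same conditions was not computed, so nothing is read from the count of these genes. With 1 library per group the difference between the genotypes was not tested. Each value rests on the wild type control, in which all 9 genes were lowest.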

How the results depend on the processing

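Each comparison was recomputed under 8 alternatives: a pseudocount of 0.1 or of 5, dropping the minimum or raising it to 5 RPKM, median-ratio and upper-quartile scaling, library totals that leave out the mitochondrial large ribosomal RNA, and values per read total not divided by length. Under these 8, counts of members past the rule stayed within 1.5 times the reported ones, and no called member changed sign. Amyrel lost its genotype calls with a pseudocount of 5 or a minimum of 5 RPKM, and gained a call in the difference of responses with a pseudocount of 0.1. Mal-A3 lost its wild type paraquat call and the difference of responses with a pseudocount of 5. The number of all genes past the rule moved most with the pseudocount. With 0.1 it was 189 for paraquat in the mutant and 1946 for the difference of responses, and with 5 it was 435 and 204 between genotypes (control and paraquat), 589 and 65 for paraquat in wild type and mutant, and 528 for the difference of responses. Scaling moved the split of all genes: between genotypes in control flies 548 were higher and 481 lower, against 687 and 317 with upper-quartile scaling, and for paraquat in wild type 439 and 879 against 808 and 313. The median gene in the latter moved from −0.29 to −0.03, and the median of the 9 from 1.70 to 1.96.

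Member calls changed most where the mutant control and wild type paraquat flies were compared, which leaves out the wild type control. Where the mutant control was set against wild type paraquat flies, 3 members were past the rule, with 265 genes higher and 274 lower, 539 of 8500. With the mutant control as the baseline of wild type flies with paraquat, the same pair of libraries is read with the sign reversed, so this is no separate check. There 0 members were higher and 3 lower, of 539 genes past the rule. The negative sign was already set, since all 9 genes were second lowest in wild type with paraquat. Values of the 8 called members were tobi −2.89, Mal-A1 −0.62, Mal-A2 −0.88, Mal-A3 −1.65, Mal-A4 −0.051, Mal-A6 −0.66, Mal-A7 −0.41 and Mal-A8 −0.20. This baseline has another genotype as well, so the cause was not tested. Promoter motifs and protein identity, listed among the planned descriptions, were not run because no sequences were used here. No paired analysis was possible because each group has 1 library. Depth limits Amyrel, with 2 and 8 reads in the wild type libraries, where the floor of 3 reads corresponds to 0.0669 and 0.0646 RPKM.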
